A study of Mus musculus with 7 samples.

Results

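The Cyp3a genes encode a subfamily of cytochrome P450 enzymes, and 7 of them were examined in the livers of mice lacking TET1 and of wild-type (WT) mice: Cyp3a11, Cyp3a13, Cyp3a16, Cyp3a25, Cyp3a41a, Cyp3a44 and Cyp3a59. They were taken by gene symbol from the deposited table of each mouse, and libraries were joined by Ensembl identifier, which gave 7 of 51426 genes. All animals were male, are labelled C57BL/6J and received a high fat diet (HFD) for 16 weeks from 8 weeks of age, so that the diet is shared by both groups and no chow-fed group is compared here. Hepatic RNA was sequenced from 3 WT mice and 4 whole-body TET1 KO mice, 1 library per animal. TET1 is an enzyme that oxidizes 5-methylcytosine in DNA. The study calls the sequenced KO animals TET1-/-, a name it keeps apart from that of its floxed mice with a beta-actin Cre, and its methods give a purchased TET1 heterozygous KO line (B6;129S4-Tet1tm1.1Jae/J). Because the deletion covers every tissue, the liver values do not separate loss of TET1 in hepatocytes from its loss elsewhere.

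Cyp3a enzymes sit in the endoplasmic reticulum of hepatocytes and of gut epithelium, where they take electrons from cytochrome P450 oxidoreductase and hydroxylate steroids, bile acids and a wide range of drugs. Cyp3a11 is the main adult form in mouse liver and is commonly treated as the counterpart of human CYP3A4. Its transcription is classically induced through the pregnane X receptor (PXR, Nr1i2) and the constitutive androstane receptor (CAR, Nr1i3), each paired with RXR, on a background set by HNF4A. Cyp3a41a, Cyp3a44 and Cyp3a16 are known as forms of female or perinatal liver, with little mRNA in adult males.

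Library totals were between 15005277 and 22746138 counts, and a level of 1 CPM (counts scaled to a library of 1000000) stood for 15.01 to 22.75 counts. At a threshold of 0.05 on the Benjamini-Hochberg adjusted p, edgeR's quasi-likelihood test called 298 of 14754 tested genes, or 2.02%, of which 129 were higher and 169 lower in TET1 KO. This number was 891 when TET1 KO replicate 4 was left out and 37 when WT replicate 2 was. Counts of Tet1 itself were 1, 4 and 1 in WT and 2, 1, 4 and 1 in TET1 KO, near the limit of 3 counts, and do not check the genotypes. The 6 hepatocyte markers measured, including Alb and Ttr, summed to between 65090 and 86530 CPM in every liver.

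The members fall into groups of close sequence, which bears on how well reads can be assigned to each. In coding sequence (GENCODE M1), Cyp3a11 shared 95.2% of bases with Cyp3a41a, 94.9% with Cyp3a44 and 92.8% with Cyp3a16, but only 76.0% with Cyp3a25. Cyp3a25 and Cyp3a59 were 97.5% identical, and 28.3% of the stretches of 50 bases in the Cyp3a59 transcript also occurred in another Cyp3a transcript. The same share was 26.8% for Cyp3a25, 14.7% for Cyp3a11 and 0% for Cyp3a13, which lies apart from the others on chromosome 5. For Cyp3a41a it was 98.6%, since Cyp3a41b is 99.9% identical to it, so its own counts are uncertain. Over stretches of 100 bases the share was 6.05% for Cyp3a25 and Cyp3a59, 0.312% for Cyp3a11 and 90.8% for Cyp3a41a. The handling of reads that match several genes is not given in the sources used here.

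The sequence upstream of the transcription start groups the genes in the same way, and the windows of 4 members are shown because they pair a highly expressed gene with its barely expressed relative (Cyp3a11 and Cyp3a16) and the abundant Cyp3a25 with its near copy Cyp3a59. They run 5′ to 3′ on the strand of the gene, from position -200 to position -91 of the RefSeq start (GRCm38.p6), at chr5:145879945-145880054 (Cyp3a11, minus strand), chr5:145469814-145469923 (Cyp3a16, minus strand), chr5:146009709-146009818 (Cyp3a25, minus strand) and chr5:146079058-146079167 (Cyp3a59, plus strand). Capitals mark matches, on either strand of the gene, to the letters AGGTCA or their variant AGTTCA and to the longer CAAAGTCCA. Capitals that read otherwise are one of these on the opposite strand.
Cyp3a11: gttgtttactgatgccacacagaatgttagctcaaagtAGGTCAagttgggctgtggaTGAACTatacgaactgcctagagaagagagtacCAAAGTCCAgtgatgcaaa
Cyp3a16: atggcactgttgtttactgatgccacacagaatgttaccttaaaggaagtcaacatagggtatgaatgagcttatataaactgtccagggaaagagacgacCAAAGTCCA
Cyp3a25: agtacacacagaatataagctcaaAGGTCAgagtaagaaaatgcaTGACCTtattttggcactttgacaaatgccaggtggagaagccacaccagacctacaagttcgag
Cyp3a59: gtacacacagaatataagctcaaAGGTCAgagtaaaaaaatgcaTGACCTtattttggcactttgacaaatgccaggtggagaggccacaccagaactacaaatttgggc

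The letters AGGTCA are the core hexamer of many nuclear receptor elements, the variant AGTTCA is found in PXR and CAR elements, and CAAAGTCCA is a classic HNF4A element. Over the 250 bases before the start, Cyp3a25 and Cyp3a59 were 94.8% identical and both held AGGTCA once on each strand. Cyp3a11 was 50.5% identical to Cyp3a25 and 76.2% identical to Cyp3a16 over the same length. CAAAGTCCA occurred in 3 of the 7 members (Cyp3a11, Cyp3a16 and Cyp3a41a) and in 0.384% of 32851 upstream windows of all genes. AGGTCA occurred in 4 of the 7 members against 14.0% of all windows, AGTTCA in 2 against 11.8%, and the STAT5 letters TTCNNNGAA in 0 against 7.02%. The GENCODE M1 transcript of Cyp3a11 begins at position -110 of the RefSeq start, so its CAAAGTCCA at -109 to -101 lies upstream of one annotated start and inside the other. These are matches of letters and not measured binding sites, and no binding or methylation was analysed here.

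Per kilobase of exon, the order of the mean levels was Cyp3a11, Cyp3a25, Cyp3a13 and Cyp3a59 in both genotypes. In WT livers these means were 447, 195, 41.8 and 9.68 CPM per kilobase, and the ranges over the 3 mice did not overlap between any neighbours in this order. In TET1 KO livers they were 184, 141, 33.8 and 4.29 CPM per kilobase, and the ranges of Cyp3a11 (136 to 229.5) and Cyp3a25 (104.5 to 170.4) overlapped. In TET1 KO replicate 2 Cyp3a25 was above Cyp3a11 on this scale, at 145 against 136 CPM per kilobase. Cyp3a41a, Cyp3a16 and Cyp3a44 were all below 0.14 CPM per kilobase on average in both genotypes.

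Cyp3a11 (ENSMUSG00000056035, chr5:145854607-145879854, minus strand, GRCm38.p6) was lower in TET1 KO livers. It had 1016, 1501 and 625 CPM in WT replicates 1 to 3 (20652, 36208 and 11319 counts) and 437, 318, 538 and 429.5 CPM in TET1 KO replicates 1 to 4 (6972, 4516, 10518 and 9258 counts). Every TET1 KO liver was below every WT liver, with WT replicate 3 the lowest of its group and WT replicate 2 the highest. The mean was 1047 ± 439 CPM in WT (SD, n = 3) and 430.5 ± 89.8 CPM in TET1 KO (SD, n = 4), a 2.43-fold lower level. The log2 fold change was -1.28 with a standard error of 0.27 (edgeR quasi-likelihood test, Benjamini-Hochberg adjusted p = 0.0437), which placed the gene 237th of the tested genes by p. DESeq2, which called 4.82% of its tested genes lower, gave an adjusted p of 0.000176 for Cyp3a11. The edgeR call was close to the threshold: it was kept in 2 of the 7 fits that left out 1 mouse, and the log2 fold change ran from -0.94 (adjusted p = 0.206, without WT replicate 2) to -1.57 (adjusted p = 0.0105, without WT replicate 3). It was also past the threshold without TET1 KO replicate 4 (-1.28, adjusted p = 0.0441), and lost without WT replicate 1 or TET1 KO replicate 1, 2 or 3 (adjusted p between 0.0571 and 0.103). The call was lost as well with a block for the replicate number (-1.22, edgeR adjusted p = 0.0680). In whole tissue, fewer hepatocytes and less mRNA per hepatocyte cannot be told apart from Cyp3a11 alone. For 69 other P450 genes the median log2 fold change was 0.00, with single genes from -3.59 to 2.83. At an unadjusted p under 0.05 in edgeR's test, 15 of these were lower and 15 higher, beside 12.7% and 13.6% of all tested genes. The median log2 fold change was 0.13 for 6 hepatocyte markers, -0.13 for macrophage, -0.11 for stellate, -0.17 for endothelial and 0.18 for lymphocyte markers. For cholangiocyte markers it was 1.22, with all 5 tested above 0 and a summed level of 29.8 to 38.0 CPM in WT against 46.3 to 68.5 CPM in TET1 KO.

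**Figure D1:**
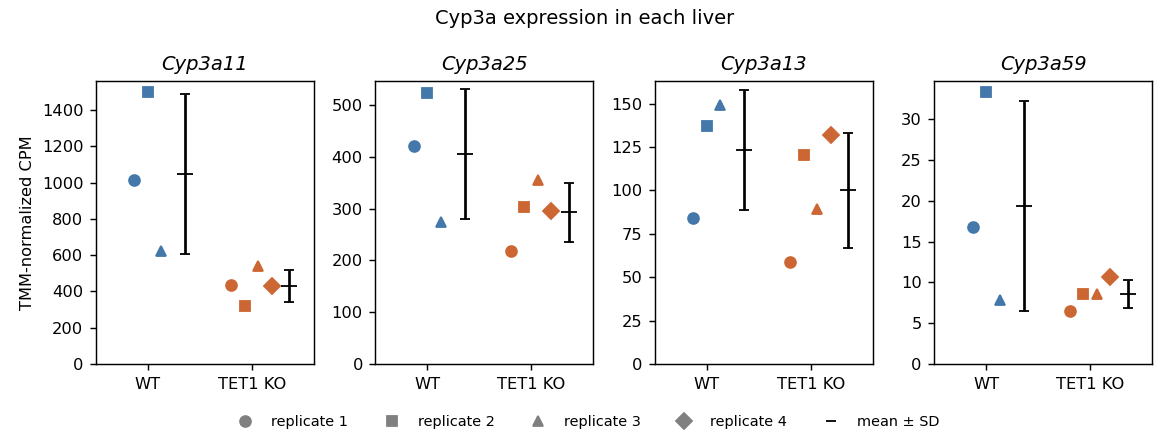
TMM-normalized CPM (vertical axis, starting at 0, with its own scale in each panel) of the 4 tested Cyp3a genes in WT (blue, n = 3) and TET1 KO (orange, n = 4) livers, with the replicate number given by the marker and the mean ± SD as a bar beside the points. The 4 TET1 KO livers lie between 318 and 538 CPM for Cyp3a11, below the lowest WT liver at 625, whereas the groups overlap for Cyp3a25, Cyp3a13 and Cyp3a59.

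Of the 7 members, 4 passed the filter on low counts, and Cyp3a11 was the only one of them past the threshold; 1.15% of all tested genes were called lower. It was likewise the only one whose groups did not overlap, against 10.8% of all tested genes with every TET1 KO liver below every WT liver. The median log2 fold change of the 4 tested members was -0.82, and that of all tested genes was 0.01. Without WT replicate 2 the members were nearer to 0, at -0.94 (Cyp3a11), -0.53 (Cyp3a59), -0.25 (Cyp3a25) and -0.23 (Cyp3a13).

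Cyp3a25 (ENSMUSG00000029630, chr5:145977192-146009644, minus strand), another abundant hepatic form that hydroxylates testosterone, had 420.0, 523 and 273 CPM in the WT livers and 218, 303, 355 and 296 CPM in the TET1 KO livers. WT replicates 1 and 2 were above every TET1 KO liver, but WT replicate 3 was below 3 of the 4, so the groups overlapped. The means were 405 ± 125 CPM (SD, n = 3) and 293 ± 56.6 CPM (SD, n = 4), and the log2 fold change of -0.47 with a standard error of 0.23 did not pass edgeR's quasi-likelihood test (Benjamini-Hochberg adjusted p = 0.211).

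Cyp3a59 (ENSMUSG00000061292, chr5:146079208-146114978, plus strand) is the near copy of Cyp3a25. It had 16.8, 33.3 and 7.89 CPM in the WT livers (342, 804 and 143 counts) and 6.51, 8.59, 8.59 and 10.6 CPM in the TET1 KO livers (104, 122, 168 and 229 counts). The 4 TET1 KO livers were close to each other, while the WT livers ranged from 7.89 to 33.3 CPM and WT replicate 3 fell inside the TET1 KO range. The log2 fold change of -1.17 was almost that of Cyp3a11 but with a larger standard error of 0.37, and did not pass (edgeR quasi-likelihood test, Benjamini-Hochberg adjusted p = 0.0947). It passed with DESeq2 (log2 fold change -1.19, adjusted p = 0.0227) and without WT replicate 3 (-1.57, edgeR adjusted p = 0.0181), and without WT replicate 2 the log2 fold change was -0.53 (edgeR adjusted p = 0.440).

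Cyp3a13 (ENSMUSG00000029727, chr5:137892933-137925610, minus strand), a form expressed in gut as well as in liver, had 84.2, 137 and 149 CPM in the WT livers and 58.5, 120.5, 89.1 and 132 CPM in the TET1 KO livers. The groups overlapped widely, and here WT replicate 3 was the highest liver rather than the lowest of its group. The log2 fold change was -0.30 with a standard error of 0.27 (edgeR quasi-likelihood test, Benjamini-Hochberg adjusted p = 0.486).

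The other 3 members were at or near the counting limit and were not tested. Cyp3a41a (ENSMUSG00000075551) had 9, 7 and 2 counts in WT and 0, 0, 0 and 2 in TET1 KO. Cyp3a16 (ENSMUSG00000038656) had counts of 1, 6 and 1 in WT and 0, 0, 3 and 0 in TET1 KO. Cyp3a44 (ENSMUSG00000054417) had 1, 1 and 0 counts in WT and 0, 1, 0 and 2 in TET1 KO. A count of 0 allows a level of up to 3 counts, which is 0.132 to 0.200 CPM over these libraries, and intervals of this kind cover counting error only. Their single counts are uncertain, since Cyp3a11, at 4516 or more counts in every liver, shares up to 95.2% of its coding bases with them. A further 4 Cyp3a symbols in the tables, Cyp3a41b, Cyp3a57, Cyp3a61-ps1 and Cyp3a63-ps, had at most 5 counts in any liver.

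**Figure D2:**
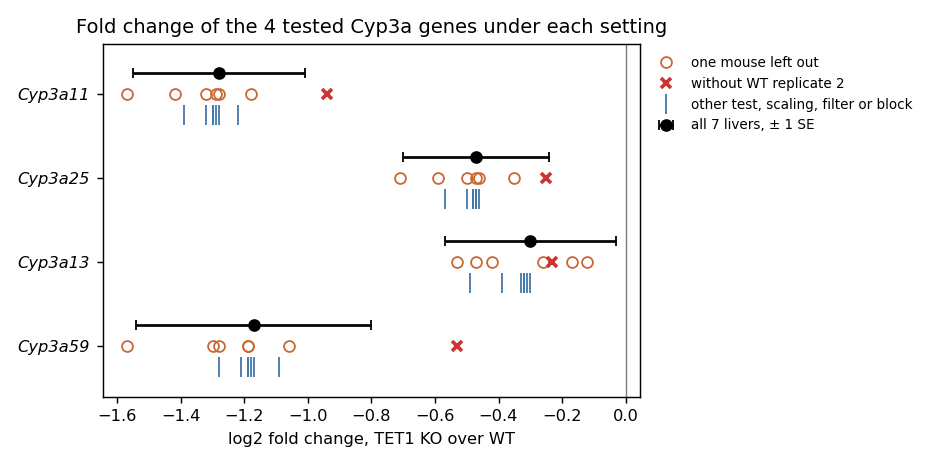
Log2 fold change of TET1 KO over WT (horizontal axis) for the 4 tested Cyp3a genes, with all 7 livers (black, bar of 1 standard error), with 1 mouse left out (orange circles, red cross for WT replicate 2) and under another test, scaling, filter or the replicate block (blue ticks). All values are below 0, and leaving out WT replicate 2 moved Cyp3a11 to -0.94 and Cyp3a59 to -0.53.

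Summed over the 7 members, Cyp3a mRNA was 1538, 2195 and 1055 CPM in the WT livers and 719, 749.9, 991 and 868 CPM in the TET1 KO livers, with means of 1596 ± 572 CPM (SD, n = 3) and 832 ± 124 CPM (SD, n = 4). Every TET1 KO liver was below every WT liver, by 1.92-fold between the means, though WT replicate 3 and TET1 KO replicate 3 differed by little. Cyp3a11 is the largest term of this sum in every liver, so the sum is not independent of the result for that gene.

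The proportions of the members also differed between livers. Cyp3a11 made up 66.1%, 68.4% and 59.2% of the members' counts in the WT livers and 60.7%, 42.4%, 54.3% and 49.5% in the TET1 KO livers. Cyp3a25 made up 27.3%, 23.8% and 25.9% in WT and 30.3%, 40.4%, 35.8% and 34.1% in TET1 KO, without overlap. The log2 ratio of Cyp3a11 to Cyp3a25 counts within a liver was 1.27, 1.52 and 1.19 in WT and 1.00, 0.07, 0.60 and 0.54 in TET1 KO, again without overlap. Such a ratio does not depend on how libraries are scaled; it was given as a description and not tested. The log2 ratio of Cyp3a25 to Cyp3a59 overlapped, at 4.64, 3.97 and 5.11 in WT and 5.06, 5.14, 5.37 and 4.80 in TET1 KO.

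**Figure D3:**
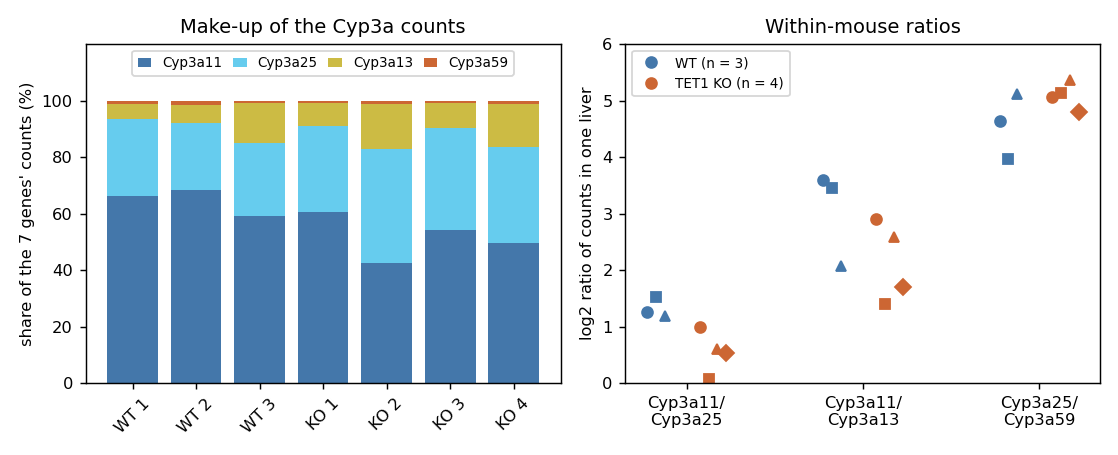
Left, share of the 7 members' counts held by each of the 4 expressed Cyp3a genes in every liver (percent, the other 3 genes too few to be seen). Right, log2 ratio of the counts of gene pairs within each liver, WT blue and TET1 KO orange, with markers for the replicate number. The Cyp3a11 to Cyp3a25 ratio is 1.19 or more in WT and 1.00 or less in TET1 KO, and the other ratios overlap.

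No transcription factor of the list known to control Cyp3a genes was called lower in TET1 KO livers. Of 18 regulators tested, 2 were called higher and 0 lower, with 0.874% of all tested genes called higher, and their median log2 fold change was 0.23. Tef, a circadian PAR bZIP activator, had 131 to 146 CPM in WT and 216 to 287 CPM in TET1 KO, and rose by 0.79 ± 0.14 (log2, SE; edgeR quasi-likelihood test, Benjamini-Hochberg adjusted p = 0.0224). Dbp, of the same family, had 84.7 to 157 CPM in WT and 202.5 to 227.5 CPM in TET1 KO, and rose by 0.91 ± 0.19 (log2, SE; adjusted p = 0.0437 by the same test). Neither gene's groups overlapped (11.7% of all tested genes had every TET1 KO liver above every WT liver). The calls of both genes were lost when WT replicate 2 or 3, or TET1 KO replicate 2 or 3, was left out, and that of Dbp also in the absence of TET1 KO replicate 1 (edgeR adjusted p = 0.0701) and with library size as the only scaling (0.0543). Both genes follow the time of day, and the hour of collection is not given in the sources used here. Nr1i3 (CAR) had 323 to 519 CPM in WT and 553 to 736 CPM in TET1 KO, with a log2 fold change of 0.56 ± 0.19 that did not pass with edgeR (adjusted p = 0.105) and did with DESeq2 (0.55, adjusted p = 0.0461). Nr1i2 (PXR), singled out after its values were seen as the classic inducer of Cyp3a11, had 59.6 to 76.5 CPM in WT and 57.8 to 98.6 CPM in TET1 KO (log2 fold change 0.20 ± 0.18, edgeR adjusted p = 0.492).

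None of the 7 genes of P450 electron transfer and of haem synthesis, binding or breakdown passed edgeR's quasi-likelihood test, and 4 of them were lower at an unadjusted p under 0.05, a share that was 12.7% over all tested genes. Their median log2 fold change was -0.41. Hmox1, which degrades haem, had 18.8 to 22.5 CPM in WT and 6.26 to 16.3 CPM in TET1 KO, without overlap (log2 fold change -0.83 ± 0.27, edgeR adjusted p = 0.0966). The log2 fold change was -0.52 ± 0.19 for the outer-membrane cytochrome b5 gene Cyb5b (edgeR adjusted p = 0.123), -1.02 ± 0.40 for Alas1, the first enzyme of haem synthesis (0.145), and -0.41 ± 0.18 for Pgrmc1, a haem-binding partner of P450 enzymes (0.186). Por, the oxidoreductase itself, was looked at after its values were seen and had 141 to 256.5 CPM in WT and 156 to 319 CPM in TET1 KO, with a log2 fold change of 0.06 ± 0.27 (edgeR adjusted p = 0.909). Its direction was not stable, with -0.03 when library size was the only scaling, -0.20 with the replicate block, -0.14 without WT replicate 1 and -0.24 without TET1 KO replicate 4. With DESeq2, 1 of the 7 was called lower, beside 4.82% of all tested genes. Without TET1 KO replicate 4, edgeR called 2 lower, beside 464 of 14420 tested genes.

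Other genes that PXR and CAR are known to induce did not all go one way. Of 21 tested, edgeR's quasi-likelihood test called 3 lower and 0 higher, where 1.15% of all tested genes were called lower. DESeq2 called 8 lower and 2 higher (Cyp2c37 and Ces2a, named for that reason after their values were seen). Over all 14744 genes DESeq2 called 710 lower and 685 higher. The log2 fold change was below 0 for 16 of the 21, against 7211 of all 14754 tested genes, and the median was -0.68. Ephx1, the microsomal epoxide hydrolase, had 455, 552 and 320.2 CPM in WT and 132, 163, 179 and 209.5 CPM in TET1 KO. No TET1 KO liver reached the WT range, and the gene fell by 1.37 ± 0.21 (log2, SE; edgeR quasi-likelihood test, Benjamini-Hochberg adjusted p = 0.0117). The glutathione transferase genes Gstm3 (log2 fold change -1.73 ± 0.31, edgeR adjusted p = 0.0224) and Gsta1 (-3.98 ± 0.73, edgeR adjusted p = 0.0246) fell as well, the latter from 0.993 to 10.2 CPM in WT to 0.141 to 0.563 CPM in TET1 KO. The lowest TET1 KO value of Gsta1 was near the counting limit of 0.132 to 0.200 CPM, so the size of its change is uncertain. Gsta1 also fell under the filter of at least 10 counts in every library. Without WT replicate 1 the log2 fold change of Gsta1 was -2.92 (edgeR adjusted p = 0.0490), and its call was lost without WT replicate 2 or TET1 KO replicate 1, 2 or 3 (0.0558 to 0.0924). That of Gstm3 was lost without WT replicate 2 or TET1 KO replicate 2 or 3 (0.0574 to 0.104). Abcc3, an exporter of conjugated bile acids and drugs, had a log2 fold change of -0.86 ± 0.21 (edgeR adjusted p = 0.0590; DESeq2 adjusted p = 0.00511). With WT replicate 2 left out the list had 0 genes called lower, with TET1 KO replicate 2 or 3 left out 1, and with TET1 KO replicate 4 left out 7. The last of these fits called 464 of 14420 tested genes lower.

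**Figure D4:**
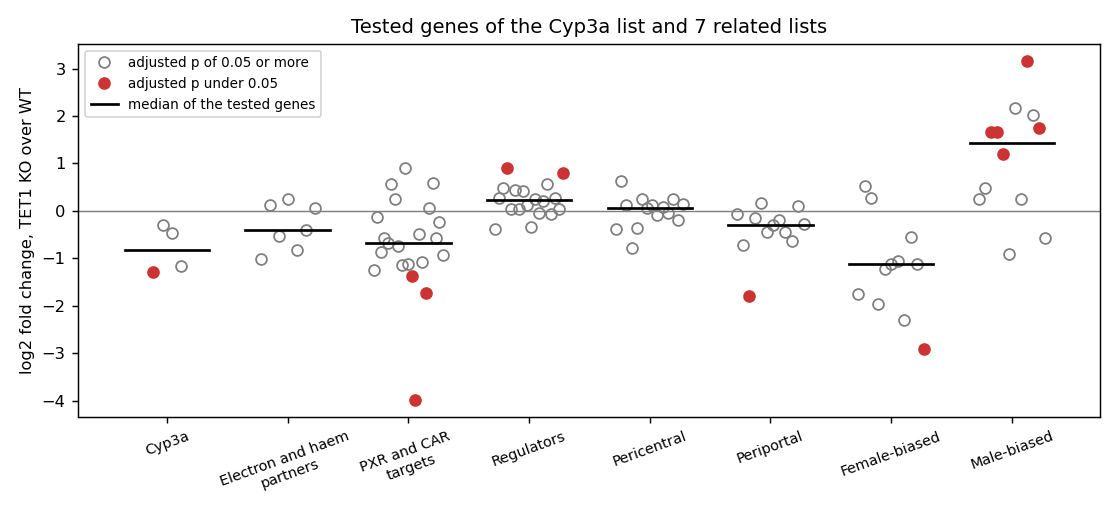
Log2 fold change of TET1 KO over WT (vertical axis) for each tested gene of the Cyp3a list and 7 related lists; filled red points have a Benjamini-Hochberg adjusted p under 0.05 (edgeR) and the black line is the median of the list. The medians run from -1.13 for female-biased genes to 1.43 for male-biased genes, with Cyp3a at -0.82 and its regulators at 0.23.

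Cyp3a11 mRNA is known to be most abundant near the central vein, and genes of that zone were examined beside it. None of the 14 pericentral genes passed edgeR's quasi-likelihood test (1 had an unadjusted p under 0.05, and DESeq2 called 0), and their median log2 fold change was 0.07. The smallest p values were those of Cyp1a2 (log2 fold change 0.64 ± 0.25, edgeR adjusted p = 0.149), Axin2 (-0.38 ± 0.21, 0.266), Glul (-0.37 ± 0.20, 0.268) and Gulo (0.24 ± 0.18, 0.413). Of 12 periportal genes, 1 was called lower and 0 higher by edgeR and 2 lower by DESeq2, beside 1.15% and 4.82% of all tested genes called lower, and the median was -0.29. The edgeR call was Apoa4, an apolipoprotein gene that also responds to hepatic fat content, with a log2 fold change of -1.79 ± 0.31 (edgeR adjusted p = 0.0201). The others with the smallest p values did not pass: Hsd17b13 at -0.64 ± 0.20 (edgeR adjusted p = 0.0943), Hal at -0.44 ± 0.16 (0.126) and Aldh1b1 at -0.71 ± 0.31 (0.183). The call of Apoa4 was lost when WT replicate 2 or TET1 KO replicate 2 or 3 was left out, and 2 periportal genes were called in the absence of TET1 KO replicate 4.

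Several Cyp3a genes differ by sex in mouse liver, so sex-biased genes were counted too, all in male animals. Of 12 male-biased genes, 5 were called higher and 0 lower by edgeR, beside 0.874% and 1.15% of all tested genes. DESeq2 called 5 higher and 1 lower (Elovl3, adjusted p = 0.0371), beside 685 and 710 of 14744 genes. The median log2 fold change was 1.43. The genes called higher by edgeR were Slco1a1 (1.74 ± 0.23, edgeR adjusted p = 0.00736), Cyp4a12a (1.67 ± 0.29, 0.0198), Cyp4a12b (1.66 ± 0.29, 0.0207), Selenbp2 (3.16 ± 0.59, 0.0264) and Cyp7b1 (1.20 ± 0.23, 0.0271). Of 11 female-biased genes tested, 1 was called lower and 0 higher by edgeR, 2 were called lower by DESeq2, and the median was -1.13. The edgeR call was Slc22a27 (-2.91 ± 0.58, edgeR adjusted p = 0.0335), followed by Hao2 (-2.30 ± 0.59, 0.0648), Cyp2a4 (-1.97 ± 0.57, 0.0814) and Fmo2 (-1.05 ± 0.34, 0.0976), which did not pass. In the female-biased group WT replicate 3 was nearest to the TET1 KO livers, as it was for Cyp3a11 and Cyp3a59. Its summed level was 139 CPM, against 367 and 479 CPM in the other WT livers and 82.5 to 195 CPM in TET1 KO. Cyp2b9 was the largest term of this sum in every WT liver (224.5, 311.7 and 97.35 CPM in replicates 1 to 3). The summed male-biased genes overlapped between the groups, at 3554 to 5860 CPM in WT and 4745 to 8767 CPM in TET1 KO. Leaving out 1 mouse gave 1 (WT replicate 2 or TET1 KO replicate 2) to 7 (TET1 KO replicate 4) male-biased genes called higher, and 0 (WT replicate 1 or 2 or TET1 KO replicate 1, 2 or 3) to 3 (WT replicate 3 or TET1 KO replicate 4) female-biased genes called lower.

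Markers of bile duct cells had a higher sum in TET1 KO livers, though no single marker passed edgeR's test. The 6 cholangiocyte markers (Krt19, Krt7, Epcam, Sox9, Spp1 and Cldn7) did not overlap between the groups in their sum, and 4 of the 5 tested were higher at an unadjusted p under 0.05 (13.6% of all tested genes) while none passed after adjustment (edgeR adjusted p from 0.0569 to 0.206). Most of the sum was Spp1 and Sox9, and with DESeq2 these and Epcam passed. Krt19 and Epcam were high mainly in TET1 KO replicate 4, at 6.68 and 4.87 CPM against at most 1.69 and 0.986 CPM in the other TET1 KO livers. Summed levels overlapped for hepatocyte (65090 to 85060 against 79390 to 86530 CPM), macrophage (189 to 307 against 144 to 312 CPM), stellate (219 to 366 against 206 to 281 CPM) and lymphocyte markers (8.50 to 17.9 against 10.7 to 19.7 CPM). Endothelial markers summed to 142.5 to 145.2 CPM in WT and 117.6 to 141.4 CPM in TET1 KO, a small difference without overlap. No marker of these 5 cell types passed edgeR's test, while DESeq2 called Lyve1 (endothelial, adjusted p = 0.0145), Col1a1 and Col3a1 (stellate, 0.0247 and 0.0201) lower and Apoa1 (hepatocyte, 2.44e-06) higher. No measured marker of these lists was at 0 in the mean of a group, and the part of cell composition in the Cyp3a11 result was not tested.

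Over the 7 livers, the genes outside Cyp3a with log2 CPM most like that of Cyp3a11 were Reep3 (Pearson r = 0.986), Tom1l1 (0.985), Ankrd52 (0.984), Abcc3 (0.983) and Tfcp2l1 (0.978), and the least alike were Rps6-ps4 (-0.987) and Rpl34-ps1 (-0.984), out of 14750 genes. These 7 livers share both the genotype difference and the library scaling, so the values are a description. Within the family, r to Cyp3a11 was 0.868 for Cyp3a59, 0.808 for Cyp3a25 and 0.167 for Cyp3a13. Without WT replicates 1 and 2, the livers with Cyp3a11 farthest from its median, these became -0.15, 0.06 and 0.12, so that the likeness of Cyp3a25 and Cyp3a59 to Cyp3a11 rested on those livers. For Abcc3 the value without them was 0.911. Abcc3 was chosen for its high r over all 7 livers, so its value cannot be set against those of the family. Without them, WT replicate 3 was the only WT liver.

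Outside Cyp3a, 69 of 110 other P450 genes were tested, of which 5 were called higher and 3 lower by edgeR, where 2.02% of all tested genes were called. This count of 8 was 2 without WT replicate 2 or TET1 KO replicate 2 or 3, where 37, 104 and 79 of all tested genes were called. It was 4 without WT replicate 1 (283 of all tested genes) and 5 without TET1 KO replicate 1 (187). Without TET1 KO replicate 4 it was 14, where 891 of 14420 tested genes were called. DESeq2 called 16, where it called 1395 of 14744 genes. The median log2 fold change (edgeR, all mice) was 0.00, with values from -3.59 to 2.83. With all mice, edgeR called Cyp2c38, Cyp2a22 and Cyp4a14 lower and Cyp2c54, Cyp4a12a, Cyp4a12b, Cyp7b1 and Cyp4f13 higher. Of these, Cyp4a12a, Cyp4a12b and Cyp7b1 are also counted among the male-biased genes, so the counts of the 2 groups are not independent. The tested P450 genes include some pseudogenes, such as Cyp2d37-ps.

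Genes beside the Cyp3a loci were looked at after their values were seen. The 3 nearest tested genes on each side of the main cluster (Zkscan5, Zfp655, Zscan25, Rnf6, Cdk8 and Gpr12) and of Cyp3a13 (Pilra, Pilrb1, Pilrb2, Gjc3, Azgp1 and Zkscan1) had log2 fold changes from -0.73 to 1.05. None of these neighbours passed edgeR's quasi-likelihood test, and the groups overlapped for every one.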

How the data were processed

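The authors deposited 1 table of raw read counts per gene for each mouse, not normalized. Per the submitters' processing notes, reads were trimmed with Trimmomatic 0.36, aligned to GRCm38 with GSNAP and counted with featureCounts 1.5.3. The library was strand-specific, prepared after poly(A) selection or, alternatively, rRNA removal. The annotation release, the strand setting and the treatment of reads matching several genes are not given in the sources used here, so near-identical Cyp3a genes may share reads. The tables listed 51426 different genes (5 repeated entries were dropped), of which filterByExpr kept 14754. The analysis used edgeR 4.0.16 in R 4.3.3 (TMM, glmQLFit with legacy = FALSE, no covariates), and p values were adjusted by Benjamini-Hochberg over all tested genes. Standard errors were derived from the F statistic. The scripts were tested on simulated data. Alternatives were DESeq2 1.42.0, RLE or no scaling beyond library size, no filter, a minimum of 10 counts per library, robust dispersions, a block for the replicate number, and leaving out each mouse. The members and gene lists were chosen with earlier results of these data known. The text names all members, the called genes of each list topped up to 4 by smallest p (1 regulator is not reported here), and the genes most and least like Cyp3a11. Gene positions and upstream windows are those of RefSeq (GRCm38.p6), where all 7 members matched; exon lengths and coding sequences are those of GENCODE M1. Libraries of one genotype differed by more than counting noise (chi-square per degree of freedom at least 27.4).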

Additional observations from a re-analysis of the deposited data

How the results depend on the processing

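The log2 fold changes of Cyp3a11, Cyp3a13, Cyp3a25 and Cyp3a59 were below 0 in all 14 alternatives, and those of Cyp3a13 and Cyp3a25 passed the test in none. Cyp3a11 passed in 8 of the 14. Leaving out 1 mouse gave -1.57 to -0.94 for Cyp3a11, with 0 to 2 members called, and -1.57 to -0.53 for Cyp3a59. The same fits called 37 to 891 of all genes, 1 to 23 of the related lists (12 with all mice) and 2 to 14 other P450 genes (8 with all mice). With DESeq2 the counts were 1395 of all genes, 2 members (Cyp3a59 at -1.19 besides Cyp3a11), 24 genes of the lists and 16 other P450 genes. Without a filter on low counts 592 genes were called, with 24623 tested. Scaling by library size alone gave 107 higher and 312 lower genes in place of 129 and 169, with a median log2 fold change of -0.08 over all tested genes, and a log2 fold change of -0.03 for Por. Leaving out 1 mouse moved Por between -0.24 and 0.29. The cause of these shifts was not tested. Cyp3a16, Cyp3a41a and Cyp3a44 were under the filter and have no fitted value.

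Deviations of same-numbered mice correlated at 0.209, -0.123 and -0.0964, within the range for mice of different number (-0.3 to 0.311). With so few pairs, these values cannot decide whether replicate numbers pair the livers. With the replicate block, 1327 of all genes and 25 genes of the lists were called, but 0 members. TET1 KO replicate 4 has no WT mouse of its number, so in this fit it does not contribute to the genotype effect. The fit is thus not separate from the one without that mouse, which called 891 of all genes and 1 member. With the block, Cyp3a11 was at -1.22 (edgeR quasi-likelihood test, Benjamini-Hochberg adjusted p = 0.0680) and Por at -0.20. Depth limits the 3 members near 0 counts.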
